A study of Homo sapiens with 26 samples.

Results

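The genes described here are 10 regulators and targets of the ATF4 stress pathway, namely ATF4, ATF3, ATF5, DDIT3, DDIT4, TRIB3, CHAC1, CEBPB, PPP1R15A and VLDLR, out of 26485 genes in the RNA sequencing tables of the series. They were taken by symbol from the expected count tables of cultured cells and of xenografts, and all 10 were tested in both tables. All libraries came from KELLY cells, a human neuroblastoma line in which MYCN is amplified, and addressed the loss of RUNX1T1, a transcriptional co-repressor. Cultured cells carried the doxycycline-inducible lentiviral vector F1HUTG, which also encodes GFP, either empty (EV) or with 1 of 2 short hairpin RNAs, labelled sh4 and shAMB. All 3 lines received doxycycline or its solvent DMSO for 72 h, with 3 libraries in each of the 6 groups. Count columns marked Pos and Neg were read as doxycycline and DMSO from these words alone, and the direction of every culture comparison rests on that reading. The xenografts were 4 control tumors and 4 tumors labelled RUNX1T1 knock-out, from control food and doxycycline food respectively, grown under the skin of female NOD SCID gamma mice aged 5 to 6 weeks at engraftment. The methods describe an inducible hairpin rather than a gene knock-out, and the labels do not say which hairpin the tumors carried. In the study's text the tumors carried a hairpin also used in culture, which its methods base on an Ambion siRNA, but no label ties that hairpin to sh4 or shAMB by name. The labels say neither whether a line is a clone or a pool nor whether its replicates were separate cultures, and p-values measure the spread between these samples only.

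ATF4 is a basic leucine zipper transcription factor whose messenger RNA is translated more efficiently when kinases that sense amino acid shortage, unfolded proteins, heme shortage or double-stranded RNA phosphorylate the translation factor eIF2. It pairs with related factors and activates genes for amino acid supply, redox balance and, under lasting stress, cell death. Because much of this control acts on translation, the ATF4 messenger RNA measured here is not a measure of ATF4 protein.

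Total expected counts were 35115915 to 54736733 in culture and 47346063 to 62378060 in xenografts, and levels below are CPM, which put all libraries on 1 scale by their TMM-adjusted totals. RUNX1T1 itself did not change past an adjusted p of 0.05 (edgeR quasi-likelihood test, Benjamini-Hochberg adjustment over all genes tested) under doxycycline in any of the lines or in the knock-out xenografts. Its edgeR log2 fold change was -0.16 for EV (adjusted p = 0.672), -0.11 for sh4 (0.118), 0.06 for shAMB (0.378) and -0.23 for the xenografts (0.229), so the groups are named here as labelled. Its level was 39.3 to 44.1 CPM under DMSO and 36.5 to 38.6 CPM under doxycycline in EV, 33.3 to 35.01 and 30.1 to 33.9 CPM in sh4, 39.9 to 42.0 and 41.3 to 44.1 CPM in shAMB, and 30 to 43.1 CPM in control and 24.3 to 35.2 CPM in knock-out tumors. Under DMSO it was already lower in sh4 than in EV, by -0.29 on the log2 scale (edgeR adjusted p = 0.0144), and the shAMB effect of doxycycline on it was higher than the EV effect by 0.21 (edgeR adjusted p = 0.0353). The study reports that RUNX1T1 protein fell under doxycycline in KELLY cells with each of its hairpins. It also reports loss of RUNX1T1 staining in KELLY xenografts at the earlier of its time points. The values given here are messenger RNA only, so they do not show whether the protein was lost. The 7 markers of adrenergic neuroblastoma were detected in both tables, with a summed level of 765 to 1659 CPM over all groups. Scaling factors moved with treatment, from 0.974 to 0.988 under DMSO to 1.04 to 1.07 under doxycycline in shAMB and from 0.936 to 0.979 in control to 1.01 to 1.09 in knock-out xenografts. Summed markers of fibroblasts, 6 genes also read in culture where no host cells exist, were 43.1 to 52.4 CPM under DMSO and 68.2 to 86.9 CPM under doxycycline in sh4, and 47.9 to 56.3 CPM and 34.5 to 41.2 CPM in shAMB. Single members went both ways on the log2 scale. In sh4 COL1A1 (0.85), COL3A1 (0.63) and PDGFRA (0.89) rose while LUM fell (-1.12). In shAMB COL3A1 (-1.235) and LUM (-0.87) fell while COL1A1 rose (0.69). The 4 macrophage markers summed to 0.616 to 0.776 CPM and 1.36 to 2.13 CPM in the shAMB groups, of which CD68 took most. The part of these shifts in the results below was not tested.

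Promoter sequence is shown for the members whose start regions hold a match to either of 2 known stress motifs. Windows of 300 bases, from 250 before to 50 after each transcription start, came from RefSeq (GRCh38.p14) and covered all 10 genes in 18 windows. The core of the composite element that C/EBP and ATF factors bind, TGATGNAA on either strand, was found in 1 window each of ATF3 and CHAC1, against 3.62% of all 35116 windows. ATF3 had 2 windows, and the one with the match lies at the upstream end of the gene (chr1:212565334-212620777). The cyclic AMP response element TGACGTCA was found in PPP1R15A alone among the 10 genes, against 1.85% of all windows. The stretches read 5′ to 3′ on the plus strand with the match in capitals, and the CHAC1 match is the reverse complement of the core. They lie at chr1:212565160-212565279 for ATF3, chr15:40953251-40953280 for CHAC1 and chr19:48872352-48872381 for PPP1R15A, where the matches begin 191, 209 and 58 bases before the RefSeq start.
ATF3: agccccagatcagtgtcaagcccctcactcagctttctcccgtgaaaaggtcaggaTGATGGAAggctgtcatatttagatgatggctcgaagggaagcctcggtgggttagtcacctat
CHAC1: ctcccctgccgTTGCATCActcctgccagg
PPP1R15A: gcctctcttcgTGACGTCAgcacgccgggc
Windows of 120 bases around the CHAC1 and PPP1R15A matches overlap an annotated GENCODE exon of some gene on either strand, so shorter stretches are shown for them. The ATF3 stretch overlaps no annotated exon. A match describes letters and not a bound site, and its bearing on the levels below was not tested. In the edgeR tests below, ATF3 and CHAC1 were called higher in sh4, shAMB and the xenografts, and so was VLDLR, which holds no match. PPP1R15A, which holds a match, passed in none of the lines and not in the xenografts. It was called in sh4 and shAMB only with GC content and gene length trends removed.

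Per kilobase of transcript, ATF4 was the most abundant of the 10 messenger RNAs in all 8 groups, and in the EV line under DMSO it stood at 387 CPM per kb. The next levels were 11.6 CPM per kb for DDIT4, 11.1 for ATF3, 10.7 for DDIT3 and 8.62 for PPP1R15A. TRIB3 followed at 4.96 CPM per kb, CEBPB at 3.69, ATF5 at 2.47, VLDLR at 1.52 and CHAC1 at 0.916. CHAC1 had the lowest level in every group but the knock-out xenografts, where ATF5 (1.41 CPM per kb) was below it (1.95). CHAC1 rested on 42 to 333 counts per library, whereas ATF4 had at least 15085. ATF4 lies on the plus strand of chromosome 22 (GRCh38, chr22:39519695-39522683) and shares no exon bases with another gene. DDIT3, on the minus strand at chr12:57516588-57521737, shares 31.6% of its exon bases with MARS1 and MBD6 on the other strand and 8.03% with genes on its own. ATF5 shares 19.5% with IL4I1 and NUP62, CEBPB 12.6% with CEBPB-AS1 and VLDLR 8.24% with other-strand genes including VLDLR-AS1. Whether counting used the strand is not given in the sources used here, so the values of DDIT3, ATF5, CEBPB and VLDLR are uncertain to that extent.

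Doxycycline alone, in the EV line, moved none of the 10 genes past the threshold. The edgeR test called 0 of 10, against 0.0939% of the 14905 genes tested, with 4 of 10 at an unadjusted p under 0.05 (5.90% of all genes), and DESeq2 also called 0. Log2 fold changes ran from -0.02 for ATF3 to 0.61 for CHAC1, and 9 of 10 were above 0, with a median of 0.18 against 0.01 over all genes tested. For ATF4, DDIT4 and CHAC1, every doxycycline library of the EV line was above every DMSO library, a separation that 14.1% of all genes showed. The EV line therefore sets the background against which the hairpin lines are read.

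In the sh4 line, ATF4, ATF3, CHAC1 and VLDLR rose and DDIT3 fell. Thus 5 of 10 genes passed the test, against 40.9% of all genes tested, so the share is near the background. The median log2 fold change of the 10 genes was 0.19, against -0.0046 over all genes. With GC content and gene length trends removed, 8 of 10 passed, 7 higher and 1 lower, against 54.9% of all genes in that fit.

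In the shAMB line, DDIT4, CHAC1, VLDLR, ATF3 and DDIT3 rose and ATF4 fell. These were 6 of 10 genes, against a background of 66.0% of all genes tested, and the median of the 10 was 0.19 against 0.10. With GC content and gene length trends removed, all 10 passed, 5 in each direction, against 72.0% of all genes in that fit. DESeq2 called 4 of 10, without ATF3 and DDIT3, and over all 14902 genes it called 4829 higher and 4776 lower.

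In the knock-out xenografts, ATF3, CHAC1 and VLDLR were higher and ATF4 was lower than in control tumors. These were 4 of 10 genes, against 41.1% of the 15960 genes tested, and the median of the 10 was 0.16 against 0.02. In bulk tumors, fewer cells of a type and less RNA per cell cannot be told apart. The calls for ATF4 and VLDLR did not survive the loss of single libraries, and the number called was 2 without control replicate 4, knock-out replicate 2 or knock-out replicate 4. Of all 16185, 16112 and 16165 genes in those fits, 2812, 2558 and 3288 were called higher and 2572, 2403 and 3027 lower.

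**Figure D1:**
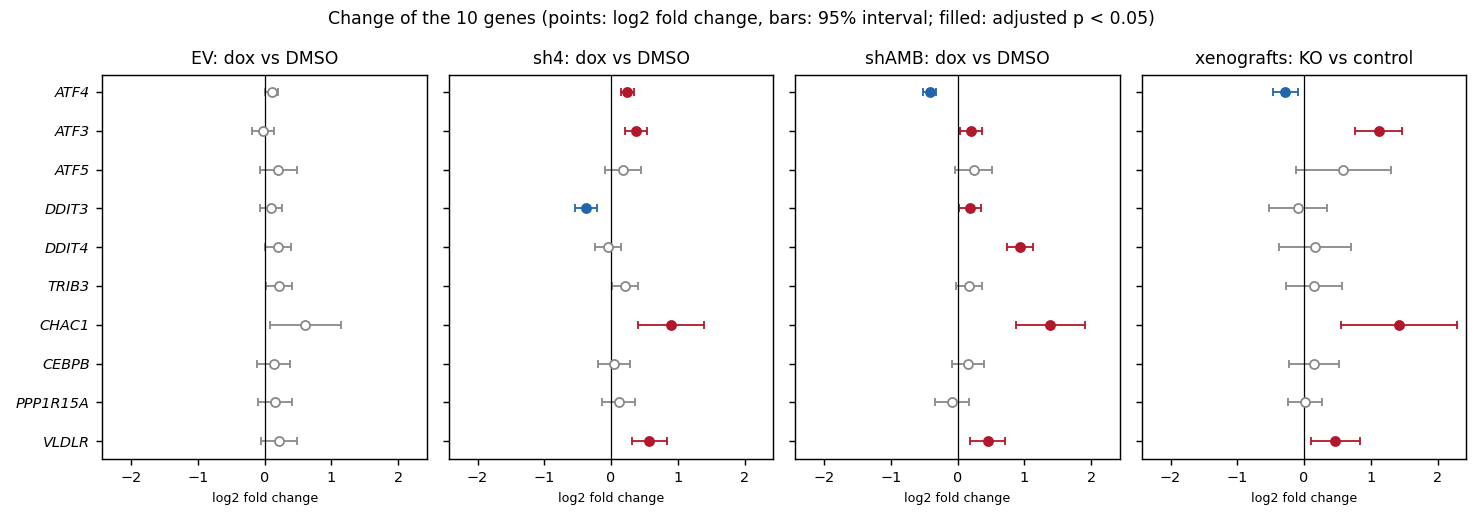
Log2 fold change of each of the 10 genes (x axis) in the EV, sh4 and shAMB lines (doxycycline against DMSO, n = 3 and 3) and in the xenografts (knock-out against control, n = 4 and 4), with 95% intervals from edgeR. Filled red and blue points passed an adjusted p of 0.05 as higher or lower. CHAC1 has the largest value in all 4 panels (0.61, 0.90, 1.39 and 1.42), with wide intervals, and ATF4 lies to the right of 0 in sh4 (0.24) and to the left in shAMB (-0.42) and the xenografts (-0.28).

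ATF4 messenger RNA rose under doxycycline in sh4 and fell in shAMB and in the knock-out xenografts. In the EV line its level was 530, 554 and 582 CPM under DMSO and 600, 602 and 594 CPM under doxycycline, which differ by 0.11 ± 0.05 on the log2 scale (SE, n = 3 per group, edgeR adjusted p = 0.672). In the sh4 line it was 526, 548 and 537 CPM under DMSO and 631, 643 and 633 CPM under doxycycline. These groups did not overlap, and the fold change was 1.18 (log2 0.24 ± 0.05 SE, edgeR adjusted p = 0.00051). In the shAMB line ATF4 went from 585, 544 and 578 CPM to 434, 445 and 398 CPM, with every doxycycline library below every DMSO library. The level under doxycycline was 0.748 of that under DMSO (log2 -0.42 ± 0.05 SE, edgeR adjusted p = 9.9e-07), and no other culture group reached as low. The sh4 effect did not pass against the EV effect, with a difference of 0.13 (95% interval -0.0034 to 0.27, edgeR adjusted p = 0.123). With GC and length trends removed ATF4 was 0.47 in sh4 and -0.73 in shAMB, and the difference of sh4 from EV was 0.54 (edgeR adjusted p = 0.00948). Control xenografts held 400, 341, 370 and 399 CPM and knock-out xenografts 327, 302, 314 and 302 CPM, again without overlap (log2 -0.28 ± 0.08 SE, edgeR adjusted p = 0.022). That call was lost with GC and length trends removed (log2 -0.18, edgeR adjusted p = 0.259) and without control replicate 4, knock-out replicate 2 or knock-out replicate 4 (edgeR adjusted p = 0.071, 0.0707 and 0.0517).

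ATF3, a stress-induced factor that can repress or activate stress genes, had its largest change in the xenografts. Control tumors gave 10.3, 8.11, 7.95 and 8.93 CPM and knock-out tumors 14.3, 22.4, 20.2 and 19.4 CPM, and the groups did not overlap. The fold change was 2.17 (log2 1.11 ± 0.16 SE, n = 4 per group, edgeR adjusted p = 0.00031). In sh4, ATF3 rose from 18.5, 21.4 and 21.0 CPM to 26.9, 26.6 and 25.2 CPM (log2 0.37 ± 0.08 SE, edgeR adjusted p = 0.00125). In shAMB the DMSO libraries already stood at 22.2, 23.1 and 24.2 CPM, and doxycycline libraries at 25.7, 29.1 and 24.7 CPM. The shAMB rise of 0.19 on the log2 scale (edgeR adjusted p = 0.037) was lost under RLE scaling, DESeq2 and 5 of the other alternatives, with adjusted p values up to 0.222. In EV the levels were 22.8, 21.9 and 19.3 CPM and 21.3, 20.9 and 20.8 CPM, which overlap.

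DDIT3 encodes CHOP, the factor that links lasting unfolded protein stress to cell death. It fell in the sh4 line, from 11.2, 12.5 and 11.4 CPM to 9.16, 8.70 and 9.33 CPM, without overlap (log2 -0.37 ± 0.08 SE, n = 3 per group, edgeR adjusted p = 0.00123). With GC and length trends removed this fall was -0.21 (edgeR adjusted p = 0.0081), and its difference from EV was -0.23 (edgeR adjusted p = 0.0432). In shAMB it was 10.7, 9.59 and 10.03 CPM under DMSO and 11.5, 12.4 and 10.6 CPM under doxycycline, and the groups overlap. Its rise of 0.19 on the log2 scale there (edgeR adjusted p = 0.0452) was lost under RLE scaling, DESeq2 and 7 of the other alternatives, with adjusted p values up to 0.317. In EV it was 10.04 to 10.8 CPM and 10.6 to 12.0 CPM, and in the xenografts 7.63 to 12.3 CPM in controls and 7.01 to 10.98 CPM in knock-outs.

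ATF5, a stress-regulated relative of ATF4 with a role in the mitochondrial stress response, and CEBPB, a C/EBP factor that can pair with ATF4, passed the test in none of the lines and not in the xenografts. ATF5 ranged from 5.15 to 8.61 CPM in culture and from 1.49 to 5.53 CPM in the xenografts, and its highest xenograft level, in knock-out replicate 1, stood well above the 2.20 to 2.61 CPM of the other knock-out tumors. The log2 fold change of ATF5 was 0.20, 0.18 and 0.24 in the EV, sh4 and shAMB lines and 0.58 in the tumors, the last with a 95% interval of -0.13 to 1.30. CEBPB ranged from 6.82 to 10.3 CPM in culture and from 3.75 to 5.75 CPM in the xenografts, with log2 fold changes of 0.14, 0.04, 0.15 and 0.15. In shAMB, removal of GC and length trends turned both to a called fall, ATF5 at -0.34 and CEBPB at -0.82. Both are rich in GC (59.7% and 66.2% of the longest transcript, against a median of 47.9% over the genes tested in culture).

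**Figure D2:**
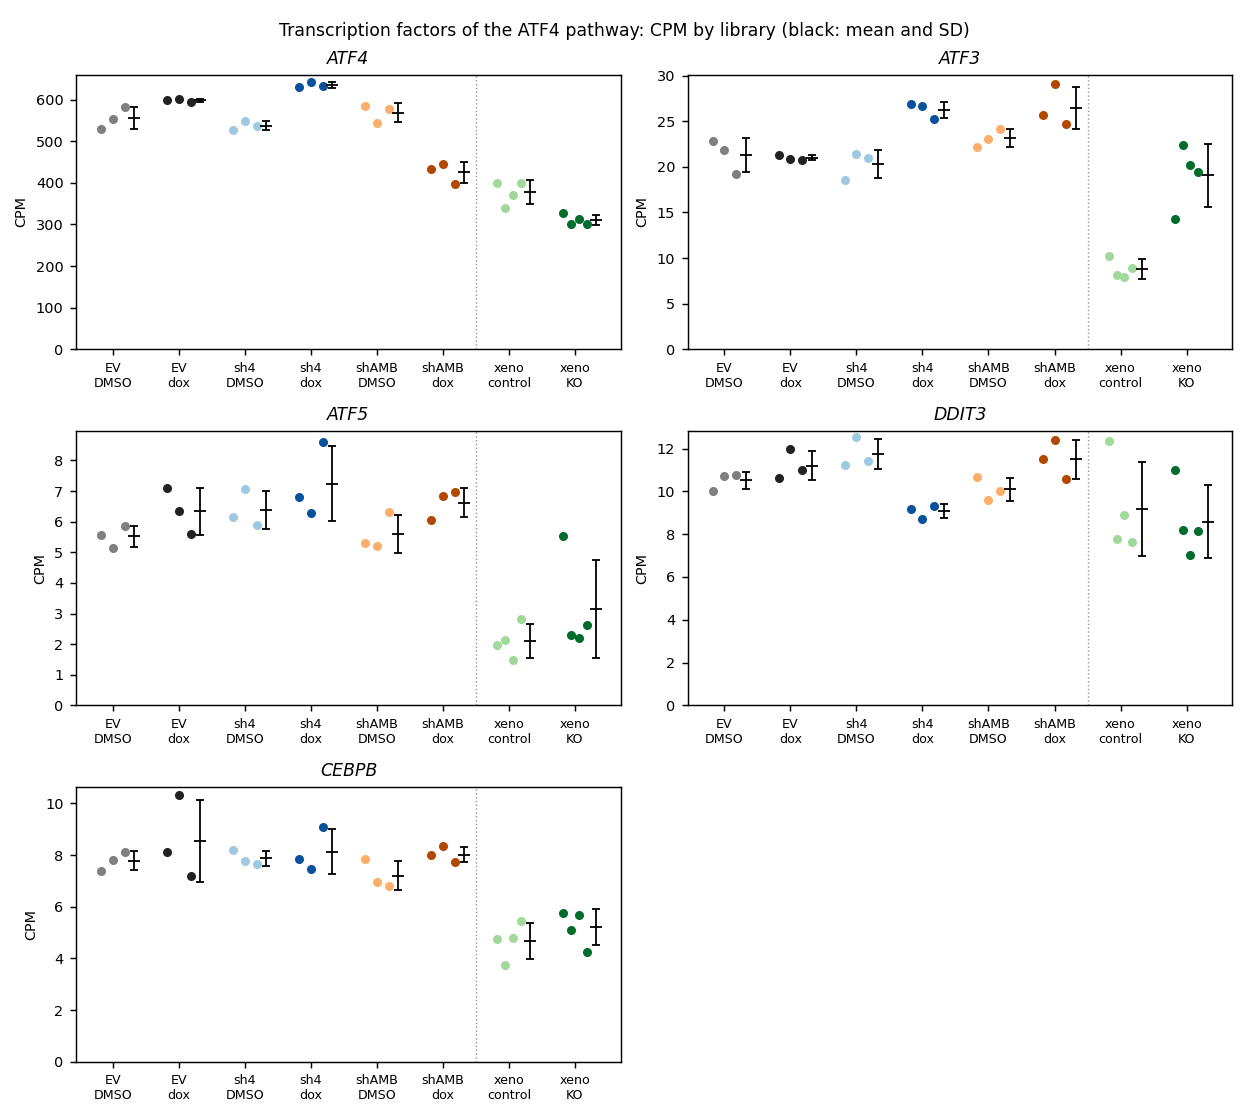
Level in CPM (y axis) of the 5 transcription factors in every library of the 8 groups (x axis), where points are libraries and black bars the mean and SD of the group (n = 3 in culture, n = 4 in xenografts, which are right of the dotted line and were scaled separately). The shAMB doxycycline libraries sit at 398 to 445 CPM of ATF4, below the other culture libraries, and the knock-out xenografts sit at 14.3 to 22.4 CPM of ATF3, above the controls.

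CHAC1 encodes an enzyme that degrades glutathione and is a known target of the ATF4 and CHOP axis. It rose in both hairpin lines and was higher in the knock-out xenografts. The EV line held 1.23, 1.27 and 1.79 CPM under DMSO and 2.20, 2.39 and 1.91 CPM under doxycycline (log2 0.61 ± 0.25 SE, n = 3 per group, edgeR adjusted p = 0.672). In sh4 it went from 2.31, 1.89 and 1.71 CPM to 2.93, 2.82 and 5.35 CPM, without overlap but with replicate 3 far above the other doxycycline libraries. The log2 rise of 0.90 ± 0.23 (SE, edgeR adjusted p = 0.0055) was 0.54 (edgeR adjusted p = 0.0241) without that library, below the 0.68 of VLDLR, and with only the sh4 libraries in the fit it was 0.90 with an adjusted p of 0.0572. In shAMB the level rose from 1.31, 1.22 and 1.39 CPM to 2.62, 3.71 and 3.95 CPM, a 2.62-fold change (log2 1.39 ± 0.24 SE, edgeR adjusted p = 0.00013). With GC and length trends removed the shAMB rise was 0.75 (edgeR adjusted p = 1.3e-05). Control xenografts held 1.05, 0.948, 1.38 and 1.17 CPM and knock-out xenografts 5.81, 2.46, 2.66 and 1.25 CPM. Knock-out replicate 4 fell within the control range, while replicate 1 stood above all. The tumor difference of 1.42 ± 0.39 on the log2 scale (SE, edgeR adjusted p = 0.0145) was 0.90 (edgeR adjusted p = 0.0255) without knock-out replicate 1, below the 1.23 of ATF3.

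DDIT4 encodes REDD1, an inhibitor of the growth kinase complex mTORC1. It stood apart in the shAMB line, where doxycycline libraries held 37.8, 38.6 and 38.3 CPM against 20.9, 18.1 and 21.0 CPM under DMSO. That was a 1.91-fold rise (log2 0.93 ± 0.09 SE, n = 3 per group, edgeR adjusted p = 2.2e-07), which fell to 0.40 on the log2 scale (edgeR adjusted p = 0.00267) with GC and length trends removed. In sh4 the levels were 28.4, 25.5 and 23.2 CPM under DMSO and 23.9, 23.5 and 27.2 CPM under doxycycline, and the groups overlap (log2 -0.05). EV gave 18.7 to 21.3 CPM and 21.4 to 25.3 CPM. In the xenografts DDIT4 was 37.0, 31.2, 43.6 and 32.7 CPM in controls and 63.6, 34.2, 39.6 and 24.2 CPM in knock-outs, where replicate 1 was again the highest and replicate 4 was below every control. The log2 fold change was 0.16 (95% interval -0.38 to 0.70), and -0.15 without knock-out replicate 1.

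VLDLR, a receptor for reelin and lipoproteins, rose in both hairpin lines and in the knock-out xenografts. It went from 5.88, 5.45 and 6.54 CPM to 10.2, 8.82 and 7.56 CPM in sh4 (log2 0.57 ± 0.12 SE, n = 3 per group, edgeR adjusted p = 0.0015), and from 8.35, 7.41 and 6.87 CPM to 11.2, 10.6 and 9.16 CPM in shAMB (log2 0.45 ± 0.12 SE, edgeR adjusted p = 0.0043). Neither pair of groups overlaps. EV had 6.14, 5.04 and 5.10 CPM under DMSO and 6.21, 5.99 and 6.74 CPM under doxycycline, a log2 value of 0.21 (95% interval -0.06 to 0.48). Xenograft levels were 8.41, 5.76, 6.65 and 5.18 CPM in controls and 9.31, 8.79, 8.49 and 9.32 CPM in knock-outs, all of the latter above all controls (log2 0.47 ± 0.17 SE, edgeR adjusted p = 0.0426). This xenograft call was lost without any of 7 of the 8 libraries, the exception being control replicate 1, with adjusted p values of 0.0586 to 0.134.

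TRIB3, a pseudokinase that restrains ATF4 and CHOP, and PPP1R15A, which encodes GADD34 and returns eIF2 to its unphosphorylated state, passed the test in none of the lines and not in the xenografts. TRIB3 ranged from 9.03 to 13.8 CPM in culture and from 9.08 to 17.4 CPM in the xenografts. Its log2 fold change was 0.22 in EV, 0.21 in sh4 (edgeR adjusted p = 0.0813), 0.17 in shAMB and 0.15 in tumors. PPP1R15A ranged from 16.8 to 29.9 CPM in culture and from 15.6 to 20.1 CPM in the xenografts, with log2 fold changes of 0.15, 0.11, -0.08 and 0.01. In shAMB, removal of GC and length trends gave called falls of TRIB3 (-0.52) and PPP1R15A (-0.53), and in sh4 it gave called rises of TRIB3 (0.54), PPP1R15A (0.28) and ATF5 (0.40).

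**Figure D3:**
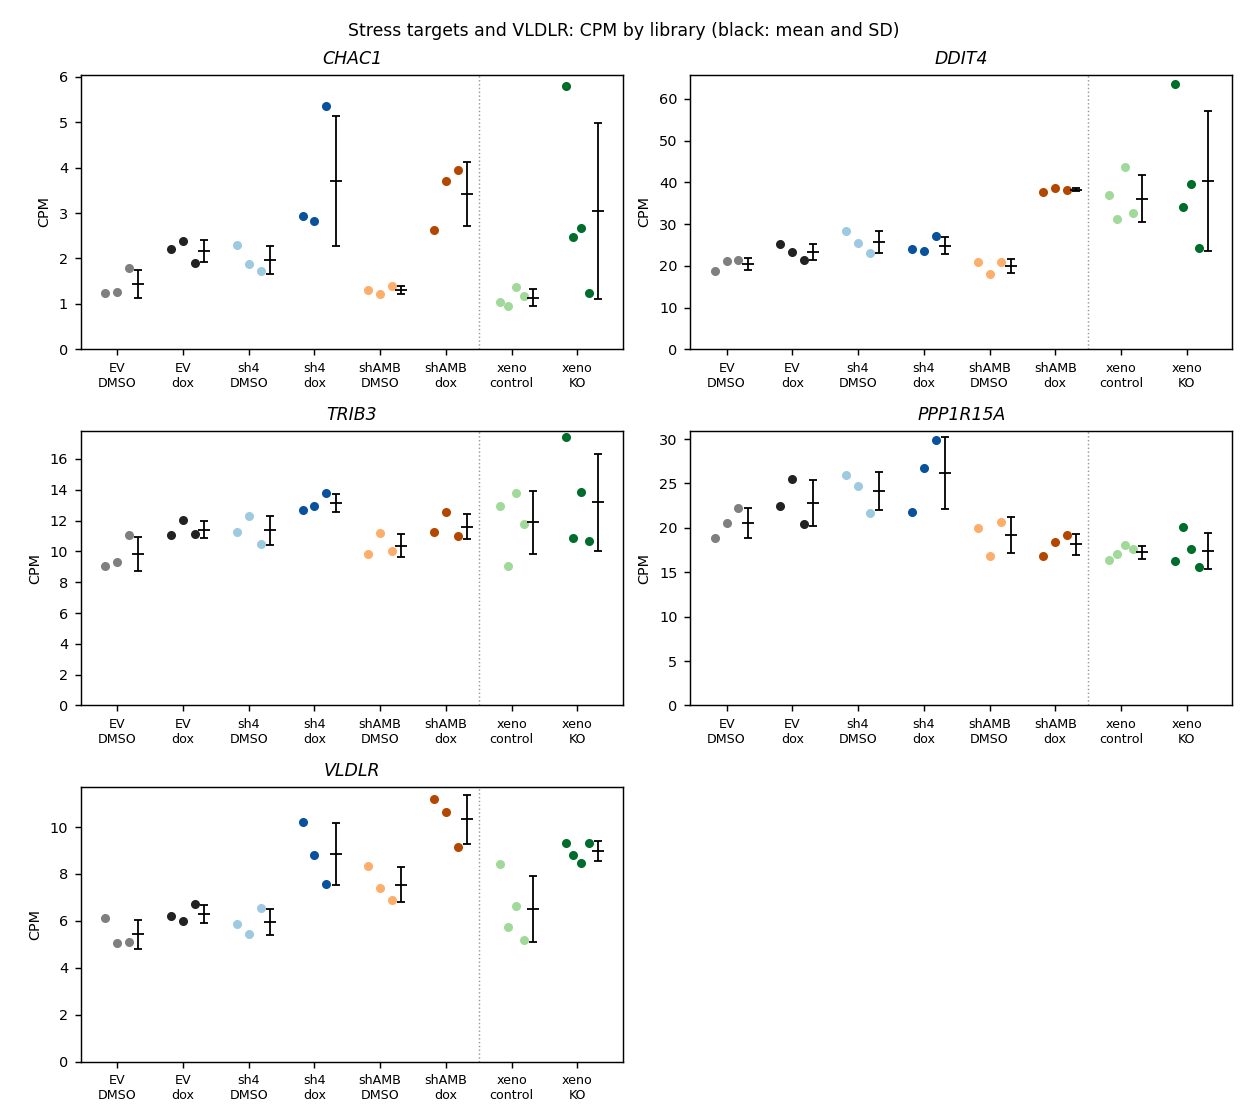
Level in CPM (y axis) of the 4 stress targets and VLDLR in every library of the 8 groups (x axis), where points are libraries and black bars the mean and SD of the group (n = 3 in culture, n = 4 in xenografts, right of the dotted line and scaled separately). The shAMB doxycycline libraries hold 37.8 to 38.6 CPM of DDIT4, and knock-out xenograft replicate 1 is the highest of its group for CHAC1 (5.81 CPM), DDIT4 (63.6 CPM) and TRIB3 (17.4 CPM).

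The responses of the lines differed for ATF4, ATF3, DDIT3 and DDIT4, as tested by the difference of the doxycycline effects in the same edgeR fit. Against the EV line, sh4 differed in 2 of 10 genes (32.6% of all genes tested). These were ATF3, by 0.39 ± 0.11 (SE, edgeR adjusted p = 0.0131), and DDIT3, by -0.47 ± 0.11 (SE, edgeR adjusted p = 0.0048). The shAMB line also differed from EV in 2 of 10 genes (45.5% of all). ATF4 differed by -0.53 ± 0.06 (SE, edgeR adjusted p = 7.9e-06) and DDIT4 by 0.73 ± 0.13 (SE, edgeR adjusted p = 0.0002). Between the hairpins, 3 of 10 genes differed (60.9% of all). The sh4 effect exceeded the shAMB effect by 0.66 ± 0.06 for ATF4 (SE, edgeR adjusted p = 5.1e-07), and was smaller by -0.56 ± 0.11 for DDIT3 (SE, edgeR adjusted p = 0.0005) and by -0.98 ± 0.13 for DDIT4 (SE, edgeR adjusted p = 8.7e-06). The DDIT4 difference between hairpins was -0.17 (edgeR adjusted p = 0.331) with GC and length trends removed. Without sh4 DMSO replicate 1 the ATF3 difference from EV missed the threshold (0.32, edgeR adjusted p = 0.0508). The comparisons with EV share its 6 libraries.

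For CHAC1 and VLDLR, which rose in both hairpin lines, the difference from the EV line did not pass. The CHAC1 effect was larger than in EV by 0.29 (95% interval -0.43 to 1.02) in sh4 and by 0.78 (0.04 to 1.53, edgeR adjusted p = 0.0806) in shAMB. Without shAMB doxycycline replicate 1 the latter was 0.94 (edgeR adjusted p = 0.0399), and without sh4 doxycycline replicate 3 the former was -0.07. CHAC1 in sh4 minus shAMB was -0.49 (-1.20 to 0.22), which became -0.82 (edgeR adjusted p = 0.0116) without sh4 doxycycline replicate 3 and turned to 0.46 (edgeR adjusted p = 0.0151) with GC and length trends removed. The VLDLR effect was larger than in EV by 0.36 (-0.02 to 0.74) in sh4 and by 0.24 (-0.14 to 0.61) in shAMB, intervals that leave room for a sizeable difference as well as for none. Without sh4 doxycycline replicate 3 the number of genes that differed between sh4 and EV was 4, with VLDLR (0.46, edgeR adjusted p = 0.0338) and DDIT4 (-0.31, edgeR adjusted p = 0.0449) added. Calls over all genes rose in that fit too, to 3565 higher and 3992 lower of 15069, against 4856 of 14905 with all libraries.

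**Figure D4:**
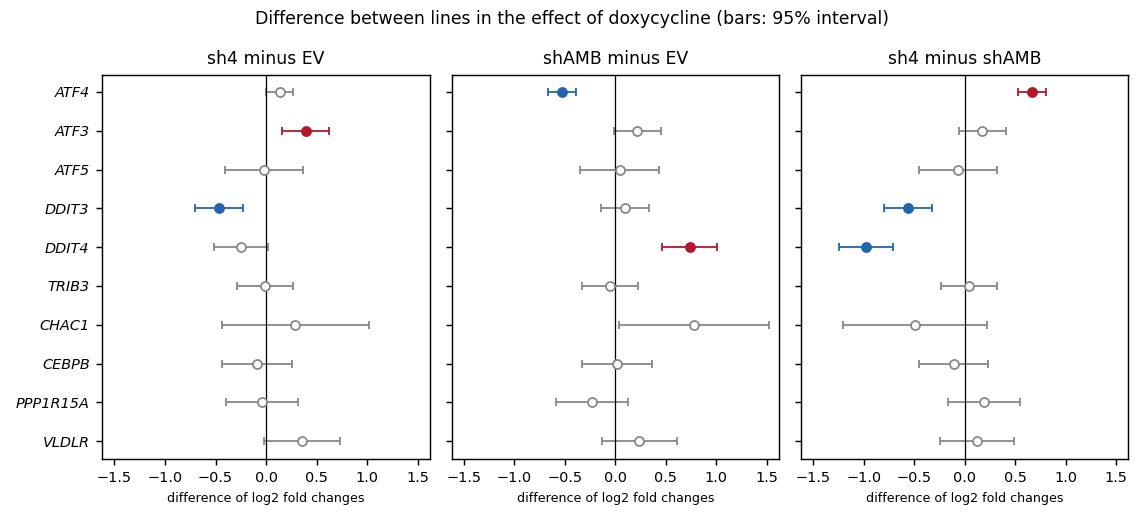
Difference of the doxycycline effects between lines (x axis, difference of log2 fold changes) for each of the 10 genes, with 95% intervals from edgeR. Filled points passed an adjusted p of 0.05, red where the first line named had the higher value and blue where it had the lower. ATF4 lies at -0.53 for shAMB minus EV and at 0.66 for sh4 minus shAMB, and the CHAC1 intervals are the widest in each panel.

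Without doxycycline, no member passed the edgeR test between lines. Under DMSO the edgeR test called 0 of 10 genes between sh4 and EV (1.12% of all genes tested), with 2 of 10 at an unadjusted p under 0.05 (28.0% of all genes). DESeq2 called 1 of the 10, DDIT4, and over all 14902 genes 182 higher and 169 lower. DDIT4 was higher in sh4 by 0.34 on the log2 scale (edgeR adjusted p = 0.0841, DESeq2 adjusted p = 0.0236), and this turned to -0.06 with GC and length trends removed. Between shAMB and EV, 0 of 10 were called by edgeR (1.52% of all genes tested), with 1 at an unadjusted p under 0.05 (11.0% of all genes), and DESeq2 called 0. VLDLR was higher in shAMB by 0.47 (edgeR adjusted p = 0.0821), and by 0.41 (edgeR adjusted p = 0.0155) with GC and length trends removed. The order of group means followed the treatments most plainly for ATF4, whose sh4 doxycycline, EV doxycycline and shAMB doxycycline groups each stood clear of their neighbours in that order, while the 3 DMSO groups overlapped.

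In some libraries several of these genes were the highest of the group at once, but the share of all genes that did so was not counted. In sh4 doxycycline replicate 3, 7 of the 10 genes were the highest of the group, and in knock-out xenograft replicate 1 also 7 of 10. In EV DMSO replicate 3, a control library, 8 of 10 were the highest. The largest departure was CHAC1 in each, 0.89, 1.51 and 0.50 above the mean of the other libraries of the group on the log2 scale. Leaving out the sh4 library changed the calls over all genes in sh4 from 6091 of 14905 to 3968 higher and 4082 lower of 15069. Leaving out the xenograft library changed them from 6555 of 15960 to 3548 higher and 3530 lower of 16119. The counts of members therefore cannot be read as particular to the 10 genes. Host red cell markers were at 0 in all xenograft libraries, and macrophage markers summed to 1.09 to 1.58 CPM in control and 1.67 to 2.62 CPM in knock-out tumors, while fibroblast markers overlapped (15.5 to 27.1 CPM and 19.9 to 32.1 CPM). Endothelial markers summed to 0.896 to 1.25 CPM and 0.558 to 1.83 CPM, with PECAM1 higher by 2.39 (edgeR adjusted p = 0.0356) and KDR at -2.4 (edgeR adjusted p = 0.0006) on the log2 scale. Both genes were low in the tumors, with medians of 0.211 and 0.371 CPM. KDR also fell in culture, where no host cells exist, at -1.54 in sh4 and -2.56 in shAMB (edgeR adjusted p = 7.3e-06 and 4.5e-08). In EV it was 0.07 (edgeR adjusted p = 0.8575). The hosts were mice and the named build is human, so low values do not show that host cells were absent. The part of host cells in the xenograft values was not tested.

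Across the 18 culture libraries, the genes with a pattern most like ATF4 among 12699 compared included SEPT3, a septin, and PDIA6, a protein disulfide isomerase of the endoplasmic reticulum (Pearson r of log2 CPM 0.963 and 0.961). Both rose in sh4 and fell in shAMB, PDIA6 by 0.19 up and -0.34 on the log2 scale. For DDIT3 they were APMAP (0.911), DDX19A (0.893) and HSD17B8 (0.893). HSD17B8 had the largest fall of these in sh4 (log2 -1.41). For CHAC1 they were GFRA2, a receptor of the GDNF family (0.974), MEF2D (0.965) and BCL2L1 (0.964), and in the xenografts GFRA2 went the other way from CHAC1, at -0.53 (edgeR adjusted p = 0.0297). For VLDLR they were KCMF1 (0.969), MGAT4A (0.947) and LRP11 (0.94). These values describe libraries that share groups and scaling and were not tested.

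Beyond the 10 genes, 71 of 76 other genes of the pathway, in 6 lists, were tested in culture and 70 in the xenografts. In EV, edgeR called 0 of 71, with 1 at an unadjusted p under 0.05, and DESeq2 called 0. In sh4, 31 rose and 4 fell, where 40.9% of all genes passed. In shAMB 24 rose and 30 fell, where 66.0% passed, and in the xenografts 12 rose and 29 fell, where 41.1% passed. These shares of all genes hold for each list below. The effect minus the EV effect was called higher for 26 and lower for 4 genes in sh4 (32.6% of all), and higher for 17 and lower for 26 in shAMB (45.5% of all). The median log2 fold change of the tested genes was 0.16 for sh4, 0.0016 for shAMB and -0.29 for the xenografts, against -0.0046, 0.10 and 0.02 over all genes. Changes of listed genes are given below as log2 fold changes from edgeR.

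Of 21 genes of amino acid synthesis and transport, the classic targets of ATF4, 11 rose and 1 fell in sh4 (40.9% of all genes passed), 4 rose and 9 fell in shAMB (66.0%), and 1 rose and 8 fell in the xenografts (41.1%). Against the EV effect, 7 were higher and 1 lower in sh4, and 2 were higher and 9 lower in shAMB. ASNS, asparagine synthetase, rose by 0.56 in sh4 (edgeR adjusted p = 4.6e-06). PHGDH, the first enzyme of serine synthesis, fell by 2.19 on the log2 scale in shAMB (124 to 27.1 CPM) and by 2.31 in the xenografts (115 to 23.3 CPM). PSPH, which completes that pathway, fell by 0.98 in shAMB, and SHMT2, the mitochondrial serine hydroxymethyltransferase, by 1.12 in the xenografts. PCK2, the mitochondrial phosphoenolpyruvate carboxykinase, was the gene that fell in sh4, by 0.92. Among the genes that rose were GPT2 at 0.57 and SLC3A2 at 0.41 in shAMB and CTH at 0.60 in the knock-out tumors. With GC and length trends removed, the fallen genes numbered 16 in shAMB and 12 in the xenografts, the risen genes 15 in sh4, and 2 genes were called higher in EV. In those fits 72.0%, 52.2%, 54.9% and 0.409% of all genes passed.

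Of the kinases and phosphatases that act on eIF2 and their regulators, in sh4, 6 of 10 rose (40.9% of all genes passed), led by EIF2S1, the phosphorylated subunit of eIF2 (0.48), and EIF2AK2, the kinase PKR (0.47). In shAMB 4 rose and 5 fell (66.0% of all genes passed), and in the xenografts 3 rose and 5 fell (41.1%). EIF2S1 and EIF2AK2 were among the risen genes there too, at 0.25 and 0.26 in shAMB and 0.41 and 0.35 in the xenografts. DNAJC3, an inhibitor of eIF2 kinases, fell by 1.01 in shAMB and by 0.88 in the xenografts but rose by 0.39 in sh4. OMA1, a mitochondrial stress protease, fell by 1.13 in shAMB. PPP1R15B, the constitutive partner of PPP1R15A in dephosphorylating eIF2, rose by 0.68 and 0.72. GCN1, an activator of the kinase GCN2, rose by 0.65 in shAMB, which was 0.01 with GC and length trends removed. Among partners of ATF4, JUN, a subunit of AP-1, rose by 0.83 in shAMB and by 1.19 in the xenografts, CEBPA rose by 1.07 in the xenografts and JDP2 by 0.87 in sh4. That list had 3 of 6 genes higher in sh4 (40.9% of all genes passed), 3 higher and 2 lower in shAMB (66.0%), and 4 higher in the xenografts (41.1%). With GC and length trends removed neither of the falls in shAMB remained, CEBPG turning from -0.16 to 0.02 and NFE2L2 going from -0.19 to -0.01.

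Chaperones of the endoplasmic reticulum and the ATF6 and XBP1 branches gave 6 of 18 genes higher in sh4 (40.9% of all genes passed), 4 higher and 9 lower in shAMB (66.0%), and 2 higher and 11 lower in the xenografts (41.1%). HSP90B1, an abundant chaperone, fell by 0.78 and 0.88 in shAMB and the xenografts. HSPA5, the chaperone BiP, fell by 0.61 in shAMB, and CALR, calreticulin, by 0.89 in the xenografts. DNAJB9, a co-chaperone of BiP, rose in all 3 settings, by 1.22 in sh4, 1.12 in shAMB and 0.91 in knock-out tumors, and EDEM1, which sends misfolded proteins to degradation, by 0.61 in sh4 and 0.69 in shAMB. Other stress targets gave 5 of 13 higher in sh4 (40.9% of all genes passed), 8 higher and 4 lower in shAMB (66.0%), and 2 of 12 higher and 4 lower in the xenografts (41.1%). With GC and length trends removed, 5 of this list rose and 5 fell in shAMB, where 72.0% of all genes passed. The median of the list there was 0.10, against 0.61 before. STC2, a secreted stress glycoprotein, rose by 0.90 in sh4 and 1.37 in shAMB, and SQSTM1, an autophagy receptor, by 1.07 in shAMB and 0.79 in the xenografts. EIF4EBP1, a repressor of translation, fell by 1.14 in the xenografts.

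Of the partners of VLDLR, 3 genes were tested. In sh4 3 fell (40.9% of all genes passed), in shAMB 1 rose and 1 fell (66.0%), and in the xenografts 1 fell (41.1%). LRP8, the other reelin receptor, fell in the 3 settings in which VLDLR was called higher, by 0.57 in sh4, 0.69 in shAMB and 0.79 in knock-out tumors. The VLDLR effect itself did not pass against EV in either hairpin line. DAB1, the adaptor of both receptors, fell by 0.72 in sh4.

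**Figure D5:**
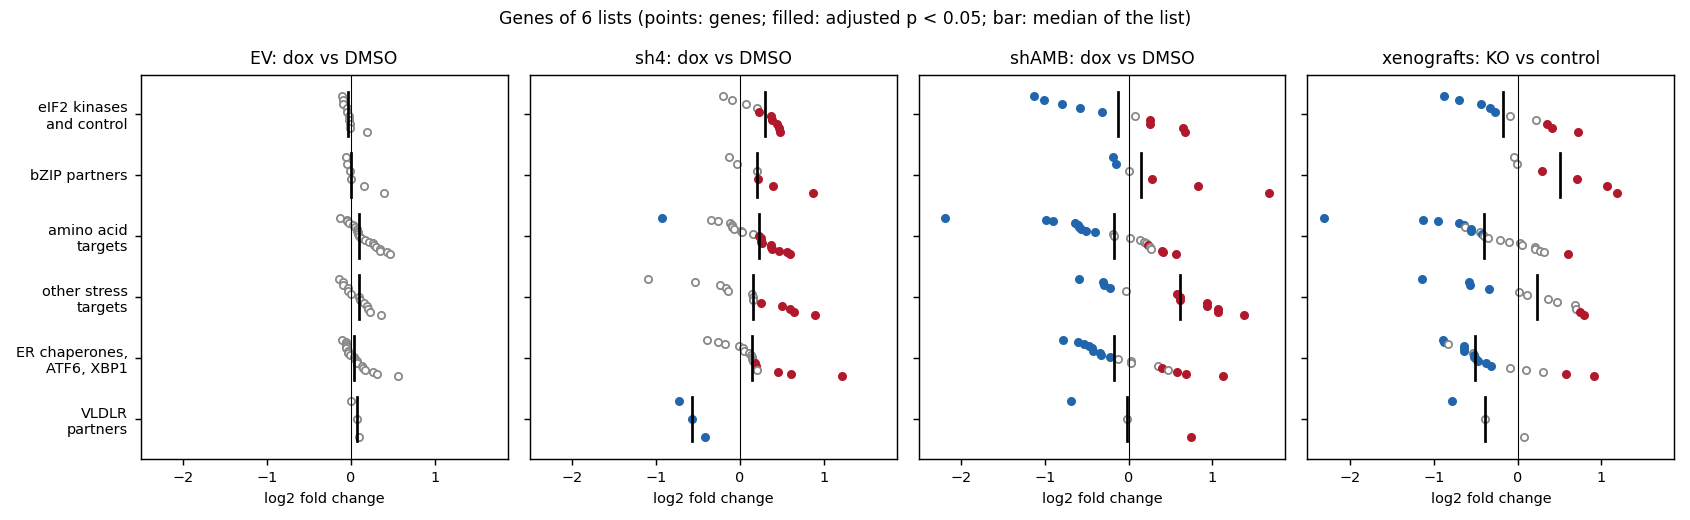
Log2 fold change (x axis) of each tested gene of the 6 lists (y axis) in the EV, sh4 and shAMB lines and the xenografts. Points are genes, filled where edgeR gave an adjusted p under 0.05 (red higher, blue lower), and black bars are list medians. No point is filled in EV, and the point farthest to the left in shAMB and in the xenografts is PHGDH (-2.19 and -2.31).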

How the data were processed

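RNA from 26 libraries had been sequenced with a stranded total RNA kit per the labels, which also name polyA RNA as the molecule. The submitters' processing notes name STAR, SAMtools, RSEM and hg38. The authors deposited RSEM expected counts (estimated counts, 91.8% whole in culture and 91% in xenografts) and TPM, which was not used. Counts were rounded and tested with the quasi-likelihood test of edgeR 4.0.16 in R 4.3.3 (filterByExpr, TMM, Benjamini-Hochberg over all genes tested), with the 18 culture libraries in 1 fit and the 8 xenografts in another. Errors are SE of the fit, and depth limits apply to counting error only, since the labels name no molecular identifiers. Genes were named as follows: all 10 members; of each list and comparison, up to 2 called genes of largest rise and of largest fall with a mean of at least 1 CPM; and the 3 genes most similar to ATF4, DDIT3, CHAC1 and VLDLR. Some genes under this rule are not reported here. Members and lists were chosen with earlier results of these data known. GC content covered 91.1% of tested culture genes. Alternatives were RLE scaling, no filter, DESeq2 1.42.0, removal of GC and length trends, a replicate block, fits of the compared groups alone, leaving out each library, and a log2 fold change of at least 1. On data simulated for the 14905 genes of the sh4 comparison, 65% of genes changed by 0.5 on the log2 scale and 95% of those changed by 1 were recovered. For the 15960 genes of the xenografts these shares were 29% and 85%. Only 100 genes were changed at each size there, whereas 40.9% and 41.1% of genes were called in the real comparisons. The adjusted threshold was therefore stricter in the simulation, and these shares do not give the power in the data. No replicate columns were identical, and each library counted as 1 replicate.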

Additional observations from a re-analysis of the deposited data

Results flagged for a closer look

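ATF5 in knock-out xenograft replicate 1 lay far above the rest of its group, at 5.53 CPM against 2.20 to 2.61 CPM. The gap to the next tumor was 0.874 of the range of the group, over the 95% critical value of Dixon for a group of that size. Of 20 groups of 4 libraries examined this way (10 genes in control and knock-out xenografts), 1 was beyond the limit, and chance alone gives about 1 in 20.

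The effect of doxycycline differed between lines, by the edgeR test of the difference, for 4 genes. ATF3 in sh4 exceeded EV by 0.39 (adjusted p = 0.0131), and DDIT3 in sh4 fell short of EV by -0.47 (adjusted p = 0.0048). In shAMB, ATF4 differed from EV by -0.53 (adjusted p = 7.9e-06) and DDIT4 by 0.73 (adjusted p = 0.0002). Between sh4 and shAMB the differences were 0.66 for ATF4 (adjusted p = 5.1e-07), -0.56 for DDIT3 (adjusted p = 0.0005) and -0.98 for DDIT4 (adjusted p = 8.7e-06).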

How the results depend on the processing

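With trends in GC content and gene length taken out, the number called was 8 of 10 in sh4 (54.9% of all genes), 10 in shAMB (72.0%), 5 for sh4 minus EV (44.3%), 6 for shAMB minus EV (58.7%), 7 for sh4 minus shAMB (65.8%) and 1 for shAMB against EV under DMSO (5.77%). This reversed the following log2 values. In EV these were ATF4 (-0.073), ATF5 (-0.029), DDIT4 (-0.031), TRIB3 (-0.034), CEBPB (-0.20) and PPP1R15A (-0.032). In shAMB they were ATF5 (-0.34), TRIB3 (-0.52) and CEBPB (-0.82), and in sh4 DDIT4 (0.23). In the xenografts they were DDIT3 (0.13) and CEBPB (-0.0039). For sh4 minus EV it was DDIT4 (0.26), for sh4 minus shAMB CHAC1 (0.46) and VLDLR (-0.10), and for sh4 against EV under DMSO DDIT4 (-0.057). Without a filter PPP1R15A in the xenografts was -0.055 and VLDLR missed the threshold (adjusted p = 0.0901). The cause was not tested.

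With a log2 fold change of at least 1 required, the numbers called were 0 in sh4, 1 in shAMB, 0 for each difference between lines and 2 in the xenografts. The share of all genes that passed this size is not given here. DESeq2 called 1 gene for sh4 against EV under DMSO, where over all 14902 genes it called 182 higher and 169 lower.

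Leaving out each library in turn gave 5 genes called in sh4 each time, 4 to 6 in shAMB, 1 to 4 for sh4 minus EV, 2 to 3 for shAMB minus EV, 3 to 4 for sh4 minus shAMB and 2 to 4 in the xenografts. It reversed some log2 values that had not passed the test, whose ranges were -0.091 to 0.029 for ATF3 and -0.021 to 0.25 for CEBPB in EV, -0.12 to 0.015 for DDIT4 and -0.044 to 0.10 for CEBPB in sh4, and -0.069 to 0.46 for CHAC1 in sh4 minus EV. In the xenografts the ranges were -0.24 to 0.042 for DDIT3, -0.15 to 0.34 for DDIT4, -0.015 to 0.235 for TRIB3 and -0.067 to 0.057 for PPP1R15A.

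Replicate numbers did not pair the libraries, since the same-number correlation was over 0.1 in 0 of 3 pairs in EV and sh4, 1 of 3 in shAMB and 1 of 4 in the xenografts. With the replicate block, 2 genes were called in the xenografts (ATF4 adjusted p = 0.0749, VLDLR 0.0792) and DDIT3 in shAMB had an adjusted p of 0.0569. Of all 15960 genes, 2557 were called higher and 2372 lower in the xenografts with that block. No other call given for the 10 genes changed with the block.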
